A study of Mus musculus with 8 samples.

Results

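Glycolysis and its oxygen-linked regulation were examined through 33 genes. They comprise glucose and lactate transporters, the enzymes that carry glucose to lactate, the pyruvate dehydrogenase switch, oxygen-sensing genes and other targets of hypoxia-inducible factor. The members were taken as the rows of the deposited count table whose gene symbol is on that list. All 33 were found among 38406 symbols, all 33 were among the 14772 genes with enough counts to test, and all 33 were counted in every library. The cells were regulatory T cells (Tregs, the CD4 T cells that restrain immune responses and depend on Foxp3) from male C57BL/6 mice. The 8 libraries form 4 groups of 2, namely aged muscle and young muscle, and aged spleen and young spleen. Aged mice were labelled as older than 6 months and young mice as 2 months old. In every group the tibialis anterior, quadriceps and gastrocnemius had been injured with 0.9 µg of cardiotoxin per muscle, a snake venom component that kills the fibres and sets off regeneration, and tissue was taken 4 days later. Muscle therefore means injured muscle, spleen means the spleen of injured mice, and no uninjured group was analysed here. Each library came from 1500 double-sorted Tregs, and the labels call the libraries of a group biological duplicates and do not state which animals or pools lie behind each. The p-values therefore judge each difference against the spread between these libraries, estimated over all 4 groups together.

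Cells split glucose to pyruvate in the cytosol, and pyruvate is then either reduced to lactate and exported or burned in mitochondria. When oxygen is low, the prolyl hydroxylases that mark hypoxia-inducible factor 1 alpha (HIF-1 alpha) for destruction lose activity, and HIF binds short motifs near genes for glucose uptake, glycolysis, lactate export and its own hydroxylases. Activated T cells also raise glycolysis when oxygen is plentiful, and Tregs are known for leaning more on mitochondrial oxidation than other activated CD4 T cells do.

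Totals ran from 1969982 to 4008622 counts per library, so that 1 count was worth 0.244 to 0.496 CPM, the count scaled to a fixed library total. Library totals were first adjusted with TMM (the trimmed mean of M values). All 8 Treg and T cell markers, Foxp3 among them, were counted in every library, and their summed level was 4180 to 5183 CPM in muscle and 3227 to 4024 CPM in spleen. In the edgeR test given below, Ctla4 and Tnfrsf18 were higher in muscle at both ages and Il2ra in aged mice. Cd3g and Cd4 were lower in aged muscle and Ikzf2 in young muscle. These calls are 37.5% higher and 25.0% lower in aged mice, beside 9.57% and 9.27% of all tested genes. In young mice they are 25.0% and 12.5%, beside 11.4% and 10.9%. The median log2 fold change of the 8, muscle over spleen, was 0.07 at both ages. The 17 muscle fibre genes, led by Ttn, Pvalb and Pygm where they were highest, summed to 116 and 163 CPM in aged muscle, 96.3 and 114 CPM in young muscle, 121 and 110 CPM in aged spleen and 55.2 and 46.9 CPM in young spleen. Ckm was at 0 in 5 of 8 libraries, and the muscle-type glycolytic enzyme gene Pgam2 was at 0 in all 8. Myeloid markers (15 measured, led by Ctss, Lyz2 and C1qa) summed to 876 CPM in young muscle replicate 1 and to 225 to 409 CPM in the other 7 libraries. Fibroblast and endothelial markers (9 measured) likewise summed to 549 CPM in young muscle replicate 1 and to 154 to 352 CPM elsewhere. Results that need that library are given with and without it. Because these are bulk libraries of sorted cells, fewer cells that express a gene and less RNA per cell cannot be told apart.

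Muscle Tregs held more transcript than spleen Tregs of the lactate exporter gene Slc16a3, the lactate dehydrogenase gene Ldha and the HIF targets Egln3 and Mxi1, and less of Ldhb and Pdk1. Most enzyme genes between glucose and pyruvate did not pass the test. In aged mice 5 of the 33 genes were higher in muscle and 2 were lower, in the edgeR quasi-likelihood test with Benjamini-Hochberg adjustment over all 14772 genes at 0.05. That is 15.2% and 6.06% of the members, where 9.57% of all tested genes were called higher and 9.27% lower. In young mice 9 were higher and 2 lower, or 27.3% and 6.06% of the members, where 11.4% and 10.9% of all tested genes were called. The median log2 fold change of the 33 genes, muscle over spleen, was 0.00 in aged mice and 0.31 in young mice, beside 0.03 and 0.07 for all tested genes. The members were chosen with earlier results of these data known, so these shares and medians are descriptions and not independent support. Slc16a3, Aldoc, Ldha, Egln3 and Mxi1 were higher in muscle at both ages, and Ldhb and Pdk1 lower at both. Slc2a1, Tpi1, Pgam1 and Pkm passed the test in young mice alone, and of these genes none passed the test of the difference between ages.

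**Figure D1:**
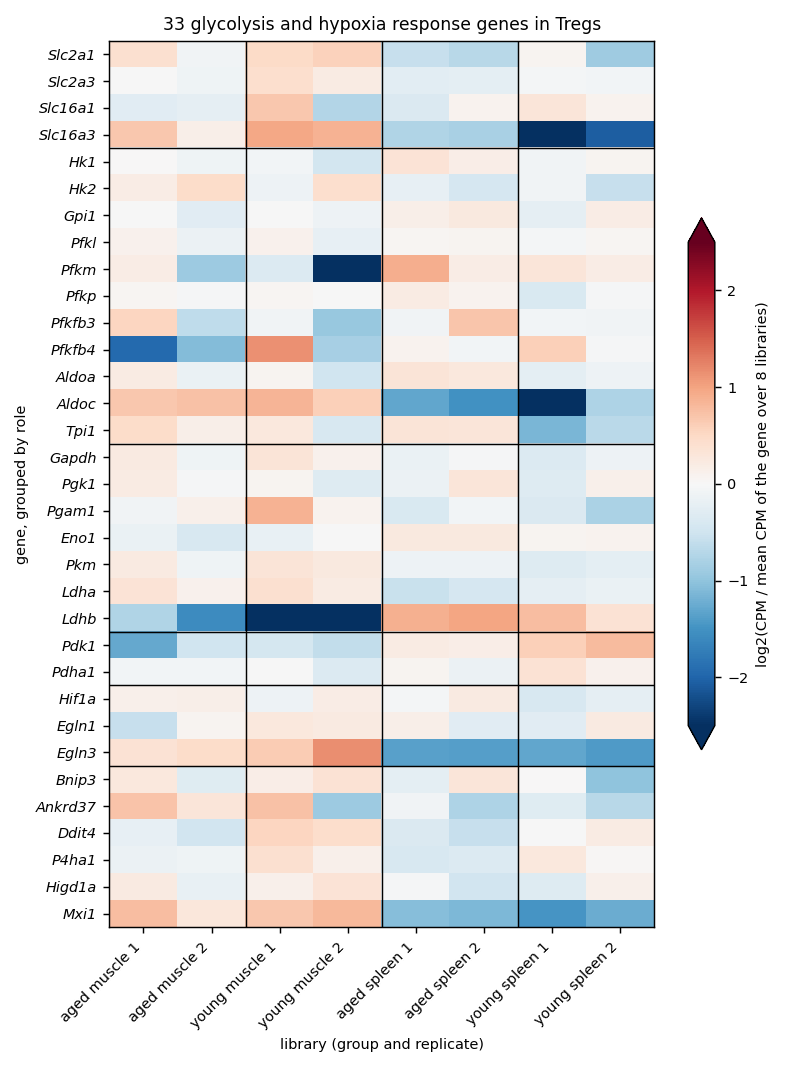
Level of each of the 33 genes (rows, grouped by role) in each of the 8 libraries (columns), as the log2 ratio of its CPM to its own mean over the libraries, with red above and blue below that mean. Slc16a3, Egln3, Aldoc and Mxi1 are red in muscle and blue in spleen, Ldhb and Pdk1 show the opposite, and Hk1, Gpi1, Pfkl and Pfkp are pale throughout.

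Promoter sequence is shown for 4 genes whose transcripts were higher in muscle at both ages (Slc16a3, Ldha, Egln3 and Mxi1) and for Ldhb, which went the other way. Aldoc, also higher at both ages, and Pdk1, also lower at both, are not printed. Each is the RefSeq window (build GRCm38.p6) from 250 bases before to 50 bases after an annotated start, read 5′ to 3′ on the gene's strand. Where a gene has several starts, the window with most motif matches is printed, the earlier by position if tied. Capitals mark the HIF core motif, searched as ACGTG and GCGTG on both strands. ACGTG overlaps the E-box CACGTG, the site of Myc and Max, so every CACGTG gives a match on each strand.
Slc16a3 (chr11:120948817-120949116, + strand): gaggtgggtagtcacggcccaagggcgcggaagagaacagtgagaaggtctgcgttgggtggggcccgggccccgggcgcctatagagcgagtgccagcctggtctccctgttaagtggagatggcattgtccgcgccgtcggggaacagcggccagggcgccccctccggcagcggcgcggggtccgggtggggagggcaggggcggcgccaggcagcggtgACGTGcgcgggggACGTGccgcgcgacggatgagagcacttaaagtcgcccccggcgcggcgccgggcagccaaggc
Ldha (chr7:46845554-46845853, + strand): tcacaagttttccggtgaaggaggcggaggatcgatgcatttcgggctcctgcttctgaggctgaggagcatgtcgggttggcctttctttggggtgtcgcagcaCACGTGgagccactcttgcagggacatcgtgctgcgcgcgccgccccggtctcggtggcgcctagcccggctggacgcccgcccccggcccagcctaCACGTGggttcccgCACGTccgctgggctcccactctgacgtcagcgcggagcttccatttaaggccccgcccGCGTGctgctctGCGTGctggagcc
Egln3 (chr12:54203825-54204124, - strand): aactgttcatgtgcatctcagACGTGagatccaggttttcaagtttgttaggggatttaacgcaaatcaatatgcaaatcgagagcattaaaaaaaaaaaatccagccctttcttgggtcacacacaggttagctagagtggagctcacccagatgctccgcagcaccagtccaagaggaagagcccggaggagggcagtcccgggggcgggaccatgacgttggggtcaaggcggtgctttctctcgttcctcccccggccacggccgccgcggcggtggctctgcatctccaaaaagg
Mxi1 (chr19:53329163-53329462, + strand): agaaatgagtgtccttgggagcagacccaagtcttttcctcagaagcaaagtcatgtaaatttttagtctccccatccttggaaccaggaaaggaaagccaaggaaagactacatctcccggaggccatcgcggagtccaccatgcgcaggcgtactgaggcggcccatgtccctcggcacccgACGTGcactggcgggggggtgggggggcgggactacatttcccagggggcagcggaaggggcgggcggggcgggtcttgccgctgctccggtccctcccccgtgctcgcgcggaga
Ldhb (chr6:142507908-142508207, - strand): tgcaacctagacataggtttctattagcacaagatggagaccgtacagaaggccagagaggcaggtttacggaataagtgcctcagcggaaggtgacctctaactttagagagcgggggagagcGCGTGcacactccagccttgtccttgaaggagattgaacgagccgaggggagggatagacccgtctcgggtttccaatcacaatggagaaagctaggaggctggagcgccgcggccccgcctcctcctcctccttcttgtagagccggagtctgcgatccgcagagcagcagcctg
The Ldha window held 7 matches, of which CACGTG occurs at 2 places, the Slc16a3 window held 2, and the Egln3, Mxi1 and Ldhb windows held 1 each. In the genes not printed, the window with most matches held 3 for Aldoc and 2 for Pdk1. A match was present in 39 of 47 member windows (83.0%), against 14380 of 32851 windows of all genes (43.8%). Counted by gene, 30 of the 32 members with a window held one, against 6768 of 10433 tested genes with a window (64.9%). Gpi1 and Tpi1 held none, and Slc2a3 is named only. Ldhb, lower in muscle, and Slc16a3, higher in muscle, both carry the motif. A match is a string of letters and does not show that HIF was bound, and no binding was measured here.

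Among the 4 member transporters, the lactate and proton exporter gene Slc16a3 (MCT4) had the largest tissue differences. Slc16a3 was at 272 and 189 CPM in aged muscle, 335 and 315 CPM in young muscle, 102 and 97.7 CPM in aged spleen and 20.4 and 41.2 CPM in young spleen. Every muscle library was above every spleen library, and aged spleen stood between muscle and young spleen. The log2 fold change, muscle over spleen, was 1.21 ± 0.24 (standard error, edgeR adjusted p = 0.00463) in aged mice, or 2.31-fold. It was 3.38 ± 0.28 (adjusted p = 2.13e-06) in young mice, or 10.4-fold. The call in aged mice ended without either aged spleen library (1.24 and 1.18), and the call in young mice was kept under all 14 other settings.

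Slc16a1 (MCT1), the high-affinity lactate carrier, was at 14.8 and 15.5 CPM in aged muscle, 28.8 and 10.9 CPM in young muscle, 14.1 and 19.2 CPM in aged spleen and 22.3 and 19.2 CPM in young spleen, with overlapping groups. Set per length (CPM per kilobase of annotated exon), Slc16a3 made up 93.9% and 91.0% of the pair in aged muscle, 90.7% and 96.0% in young muscle, 85.7% and 80.9% in aged spleen and 43.3% and 64.0% in young spleen. Slc16a3 was thus the more abundant of the pair in every library but young spleen replicate 1. The glucose transporter gene Slc2a1 (GLUT1) was at 84.3 and 60.0 CPM in aged muscle, 88.7 and 94.8 CPM in young muscle, 42.9 and 39.4 CPM in aged spleen and 66.9 and 34.6 CPM in young spleen. The muscle libraries lay above the spleen libraries within each age. The log2 fold change was 0.81 ± 0.28 in aged mice (edgeR adjusted p = 0.0569) and 0.86 ± 0.28 in young mice (adjusted p = 0.0415). The young call ended without young spleen replicate 2 (0.46), without either young muscle library (0.91 and 0.82), without either aged spleen library (0.86 each) and with only the young groups fitted, and the aged value passed under 9 other settings. Slc2a3 (GLUT3), the other main T cell glucose transporter, was at 91.3 to 147 CPM over the 8 libraries and passed in neither age.

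Of the 11 genes from glucose to triose phosphate, 1 was higher in aged muscle than in aged spleen (9.09%, beside 9.57% of all tested genes) and 2 were higher in young muscle than in young spleen (18.2%, beside 11.4%). The median log2 fold changes of the 11 were -0.25 in aged and 0.00 in young mice. By edgeR 0 were lower at either age, beside 9.27% of all tested genes in aged and 10.9% in young mice. DESeq2 and an unadjusted p of 0.05 also gave 0 lower. Hexokinase 1 (Hk1), which traps glucose in the cell, was at 139 to 245 CPM over the 8 libraries, and the inducible Hk2 at no more than 20.6 CPM. Per length Hk1 made up 83.1% to 93.4% of the pair in every library. The phosphofructokinase genes Pfkl and Pfkp, whose enzyme is a committed step of glycolysis, lay at 55.6 to 69.1 CPM and 90.1 to 134 CPM. Pfkm, the muscle-type subunit, lay at 0.99 to 13.4 CPM. Gpi1 (glucose-6-phosphate isomerase) and Aldoa (aldolase A) lay at 139 to 201 CPM and 105 to 184 CPM. None of these genes passed in either tissue comparison.

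Aldoc, the aldolase isoform best known from brain, was the exception in this stretch. It was at 22.9 and 23.9 CPM in aged muscle, 26.0 and 21.8 CPM in young muscle, 5.84 and 5.05 CPM in aged spleen and 1.39 and 8.47 CPM in young spleen. The spleen levels rest on 24 and 15 reads in aged and 3 and 22 reads in young libraries. All 4 muscle libraries were above all 4 spleen libraries. The log2 fold change was 2.09 ± 0.58 in aged mice (edgeR adjusted p = 0.0223) and 2.23 ± 0.61 in young mice (adjusted p = 0.0162). Young spleen replicate 1 decided the size in young mice, since leaving it out gave 1.49 and ended the call and leaving out replicate 2 gave 4.06. The aged call ended without any single aged library, at 2.00 to 2.20. Even so Aldoc stayed a minor isoform, at 10.7% and 13.9% of the aldolase pair per length in aged muscle, 13.1% and 15.7% in young muscle, 2.76% and 2.495% in aged spleen and 0.99% and 5.28% in young spleen.

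Tpi1 (triosephosphate isomerase) was at 125 and 101 CPM in aged muscle and 113 and 112 CPM in aged spleen, where the groups overlapped, and at 109 and 68.5 CPM in young muscle and 40.9 and 57.0 CPM in young spleen, where they did not. Muscle was higher in young mice by 0.86 ± 0.25 (edgeR adjusted p = 0.0223), a call that ended without young spleen replicate 1 (0.65) or young muscle replicate 1 (0.48). The genes of the bifunctional enzymes that set fructose 2,6-bisphosphate, the allosteric activator of phosphofructokinase, were low and scattered. Pfkfb3 was at 10.4 to 32.4 CPM. Pfkfb4 was at 1.85 and 3.36 CPM in aged muscle, 15.6 and 3.97 CPM in young muscle, 7.55 and 6.74 CPM in aged spleen and 10.7 and 6.93 CPM in young spleen, so its young muscle level rests on the replicate with high myeloid markers. Without that replicate its young tissue value was -1.14 ± 0.95, against 0.17 with it, and neither passed.

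From triose phosphate to lactate, Ldha and Ldhb, the subunits of lactate dehydrogenase, went opposite ways. Ldha, the subunit that favours lactate production, was at 758 and 642 CPM in aged muscle, 791 and 686 CPM in young muscle, 404 and 445 CPM in aged spleen and 509 and 533 CPM in young spleen. Its muscle libraries lay above all spleen libraries. The log2 fold change was 0.72 ± 0.15 in aged mice (edgeR adjusted p = 0.00423), which ended without aged spleen replicate 1 (0.65). It was 0.50 ± 0.15 in young mice (adjusted p = 0.0263), a call that ended without any single spleen library (0.47 to 0.54), without young muscle replicate 1 (0.40) and with no filter on low counts (0.48).

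Ldhb, the subunit that favours the return of lactate to pyruvate, was at 17.02 and 9.66 CPM in aged muscle, 4.00 and 2.98 CPM in young muscle, 53.3 and 56.6 CPM in aged spleen and 48.7 and 36.6 CPM in young spleen. The 4 muscle libraries were below the 4 spleen libraries, and young muscle was lowest. In aged mice Ldhb was lower in muscle, with a log2 fold change of -2.03 ± 0.35 (edgeR adjusted p = 0.00106), a level 4.09-fold lower. In young mice it was -3.58 ± 0.42 (adjusted p = 2.42e-05), or 11.9-fold lower. Both calls were kept under all 14 other settings. Per length Ldhb made up 4.52% and 3.08% of lactate dehydrogenase transcripts in aged muscle, 1.05% and 0.91% in young muscle, 21.8% and 21.2% in aged spleen and 16.8% and 12.6% in young spleen. Of the 50-base windows of the Ldhb transcripts, 27.0% recur in a gene-like copy (Gm5514), so part of its reads may have been dropped in counting, in every group alike. For Ldha that share was 16.7%, and for Slc16a3, Egln3 and Pdk1 it was 0.

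**Figure D2:**
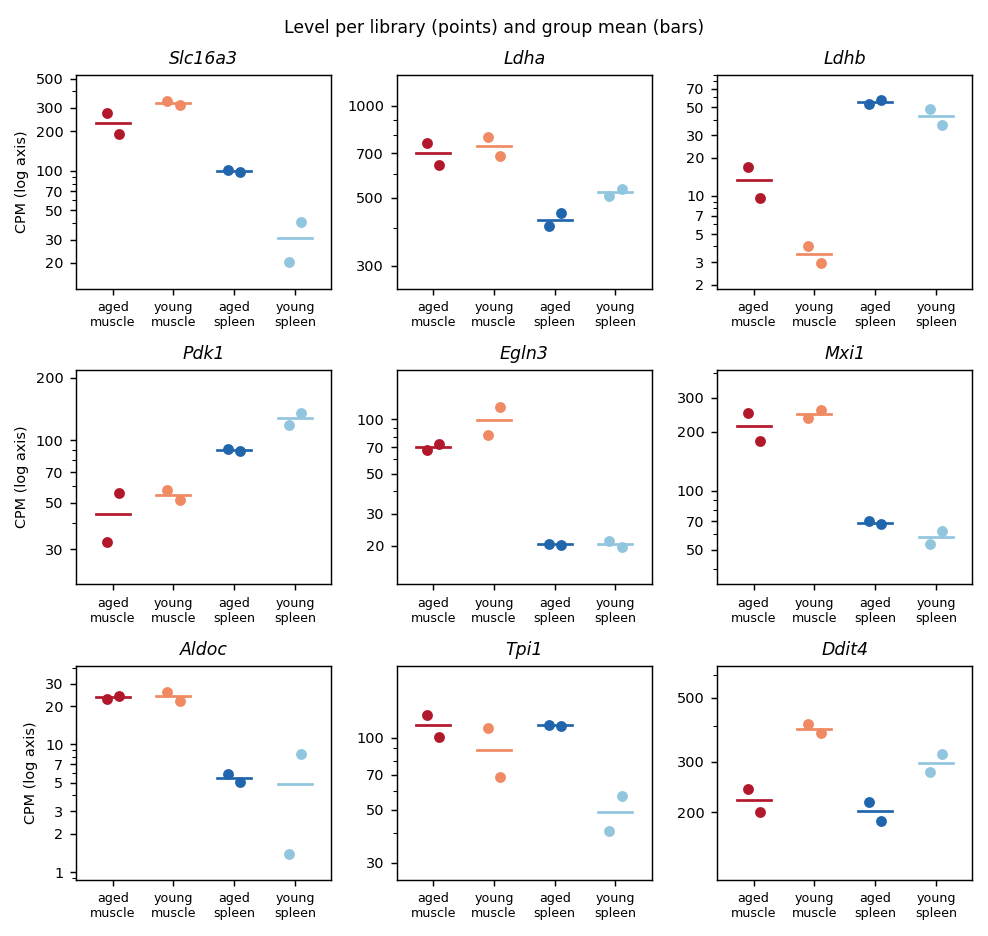
CPM on a log axis of 9 genes in each of the 8 libraries (points) with the group means (bars), groups from left to right being aged muscle, young muscle, aged spleen and young spleen. Slc16a3, Ldha, Egln3, Mxi1 and Aldoc are higher in muscle, Ldhb and Pdk1 are lower there, Tpi1 is low in young spleen, and Ddit4 is lower in the aged groups.

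Among the remaining enzymes of this stretch, Pkm (pyruvate kinase), with the largest CPM of the 33 genes in every library, was at 1064 and 847 CPM in aged muscle, 1138 and 1077 CPM in young muscle, 830 and 837 CPM in aged spleen and 724 and 768 CPM in young spleen. The muscle libraries lay above the spleen libraries of the same age, by a log2 fold change of 0.57 ± 0.15 in young mice (edgeR adjusted p = 0.0128), and the aged value did not pass. Pgam1 (phosphoglycerate mutase) was at 161 and 93.3 CPM in young muscle and 68.7 and 51.2 CPM in young spleen, higher by 1.09 ± 0.26 (adjusted p = 0.00803). Without young muscle replicate 1 the Pgam1 value was 0.64 and without young spleen replicate 2 it was 0.89, and both ended the call, as leaving out either young spleen library (0.53 and 0.61) did for Pkm. Gapdh, Pgk1 and Eno1 passed in neither age, with levels of 157 to 247, 79.4 to 123 and 27.3 to 42.5 CPM. Windows shared with other genes made up 72.2% of Eno1, 68.0% of Pgk1, 41.5% of Pgam1, 34.4% of Pkm and 27.8% of Gapdh, so their levels are uncertain.

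Added up, the 16 enzyme genes from hexokinase to lactate dehydrogenase took 0.330% and 0.296% of all counts in aged muscle, 0.319% and 0.294% in young muscle, 0.269% and 0.279% in aged spleen and 0.208% and 0.234% in young spleen. The muscle shares were above the spleen shares, and young spleen was lowest. In TMM-scaled CPM the same genes summed to 3195 and 2673 in aged muscle and 2628 and 2703 in aged spleen, so the aged tissues overlapped. In young mice the sums were 3330 and 2874 CPM in muscle and 2293 and 2514.5 CPM in spleen, without overlap. The summed level of 11 proliferation markers was higher in muscle than in spleen, at 319 and 305 CPM in aged muscle, 443 and 240 CPM in young muscle, 209 and 195 CPM in aged spleen and 147 and 197 CPM in young spleen. B cell markers ran the other way, at 299 to 338 CPM in aged muscle, 294 to 364 CPM in young muscle, 676 to 677 CPM in aged spleen and 507 to 514 CPM in young spleen. The part of either in these results was not tested.

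At the branch point into the mitochondria, Pdk1, the kinase that shuts off pyruvate dehydrogenase and is itself a textbook HIF target, was lower in muscle. Pdk1 was at 32.6 and 55.8 CPM in aged muscle, 57.9 and 51.6 CPM in young muscle, 90.6 and 88.3 CPM in aged spleen and 119 and 136 CPM in young spleen. No muscle library reached any spleen library. The log2 fold change was -1.02 ± 0.24 in aged mice (edgeR adjusted p = 0.00891) and -1.22 ± 0.24 in young mice (adjusted p = 0.0022). The young call was kept under all 14 other settings, and the aged call ended without either aged spleen library or without aged muscle replicate 1 (-1.04 to -0.66). Pdha1, the catalytic subunit that Pdk1 acts on, was at 71.4 to 116 CPM and passed in neither age.

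Among the oxygen-sensing genes, the hydroxylase gene Egln3 (PHD3) passed the test at both ages, and Hif1a and Egln1 passed at neither. Egln3, an oxygen-dependent HIF hydroxylase whose gene is induced by HIF, was at 67.3 and 72.6 CPM in aged muscle, 81.5 and 117 CPM in young muscle, 20.5 and 20.2 CPM in aged spleen and 21.4 and 19.6 CPM in young spleen. All muscle libraries were at least 67.3 CPM and all spleen libraries at most 21.4 CPM. The log2 fold change was 1.78 ± 0.25 in aged mice (edgeR adjusted p = 0.000233), or 3.43-fold, and 2.27 ± 0.26 in young mice (adjusted p = 2.12e-05), or 4.83-fold, and both calls were kept under all 14 other settings. Hif1a, the regulated HIF subunit, was at 129 and 132 CPM in aged muscle, 109 and 134 CPM in young muscle, 115 and 138 CPM in aged spleen and 90.5 and 102 CPM in young spleen. Its tissue values, 0.04 ± 0.18 in aged and 0.34 ± 0.19 in young mice on the log2 scale, did not pass. Since HIF-1 alpha is controlled mainly by protein stability, its transcript says little about the factor. Egln1 (PHD2), the main HIF hydroxylase, was at 32.2 to 57.1 CPM, and Egln3 made up 73.9% and 66.2% of the pair per length in aged muscle, 65.8% and 73.8% in young muscle, 34.3% and 40.9% in aged spleen and 42.2% and 32.0% in young spleen.

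Of the 6 other HIF target genes, 1 was higher in muscle at each age and 0 were lower. That is 16.7% higher, beside 9.57% of all tested genes in aged and 11.4% in young mice. The 0 lower stands beside 9.27% in aged and 10.9% in young mice, and with 6 genes it says little. Mxi1, a partner of Max that opposes Myc, was at 251 and 180 CPM in aged muscle, 236 and 259 CPM in young muscle, 70.1 and 67.4 CPM in aged spleen and 53.4 and 62.3 CPM in young spleen, with a wide gap between the tissues. Mxi1 was higher in muscle by 1.65 ± 0.19 in aged mice (edgeR adjusted p = 3.86e-05) and by 2.09 ± 0.20 in young mice (adjusted p = 3.02e-06), on the log2 scale, and kept both calls under all 14 other settings. Bnip3, which marks mitochondria for removal, was low at 2.31 to 5.95 CPM, and 62.5% of its windows are shared with other genes. Ankrd37 was at 3.97 to 12.4 CPM. P4ha1, a collagen prolyl hydroxylase, and Higd1a, a mitochondrial membrane protein, lay at 127 to 220 and 69.1 to 122 CPM. Neither these 4 genes nor Ddit4 passed in either tissue comparison.

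**Figure D3:**
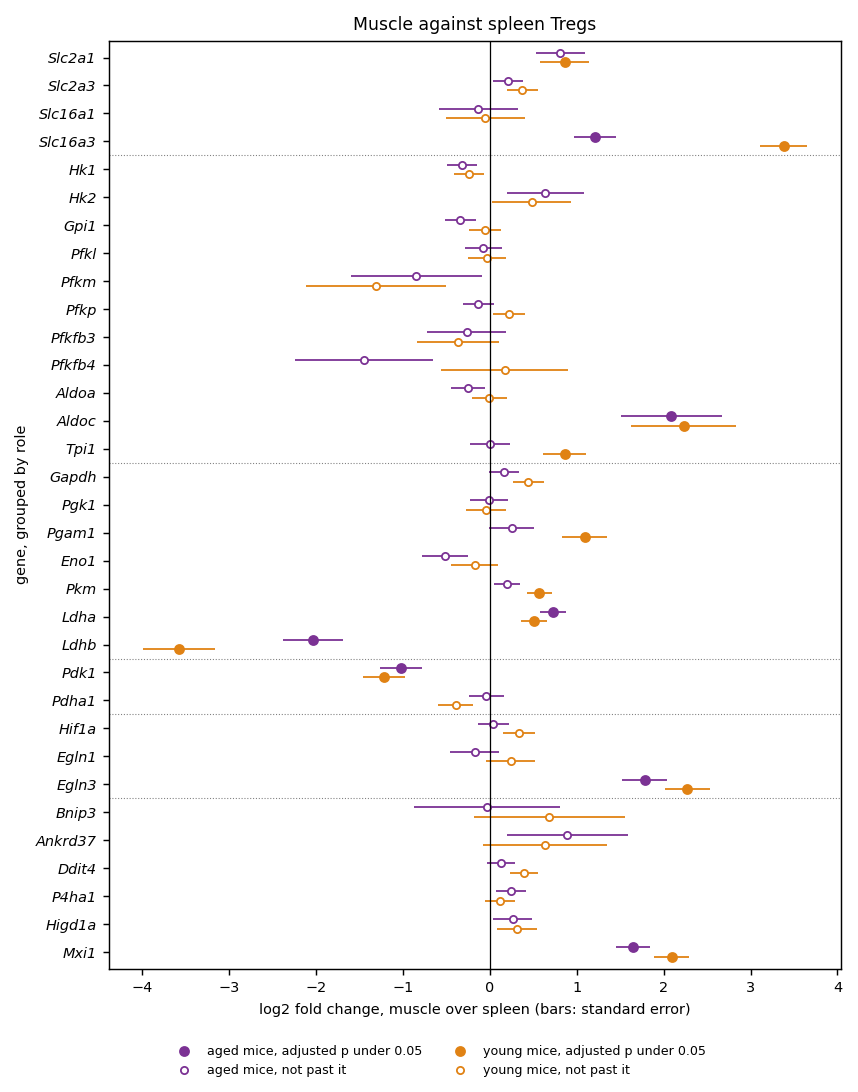
Log2 fold change of each gene, muscle over spleen, in aged mice (purple) and in young mice (orange), with bars of 1 standard error and filled points past an adjusted p of 0.05. Filled points to the right at both ages are Slc16a3, Aldoc, Ldha, Egln3 and Mxi1, filled points to the left at both ages are Ldhb and Pdk1, and Slc2a1, Tpi1, Pgam1 and Pkm are filled on the right in young mice alone.

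Other genes of these pathways were compared between muscle and spleen in the same test. Their lists were chosen for this description with earlier results of these data known, so list shares are descriptions and not independent support. Of 31 other hypoxia response genes tested, 10 were higher and 2 lower in aged muscle, and 8 were higher and 3 lower in young muscle. These are 32.3% and 6.45% of the list in aged mice, beside 9.57% and 9.27% of all tested genes, and 25.8% and 9.68% in young mice, beside 11.4% and 10.9%. Their median log2 fold changes were 0.62 in aged and 0.48 in young mice, beside 0.03 and 0.07 for all genes. Maff did not keep its direction, being among the higher genes in aged muscle and among the lower genes in young muscle. Rora, a nuclear receptor gene, was at 401 and 393 CPM in aged muscle, 324 and 361 CPM in young muscle, 150 and 139 CPM in aged spleen and 63.6 and 88.1 CPM in young spleen. It was higher in muscle by 1.46 ± 0.17 in aged mice and 2.17 ± 0.18 in young mice on the log2 scale. Hilpda, a lipid droplet protein gene, was at 135 and 123 CPM in aged muscle, 111 and 117 CPM in young muscle, 30.2 and 18.5 CPM in aged spleen and 25.5 and 30.0 CPM in young spleen. Ndrg1, a stress response gene, was at 62.1 and 51.2 CPM in aged muscle, 69.1 and 74.9 CPM in young muscle, 15.1 and 14.5 CPM in aged spleen and 12.5 and 13.9 CPM in young spleen. In both genes the muscle libraries were far above the spleen libraries, with edgeR adjusted p between 1.08e-05 and 0.000201. Fam162a and Kdm4b, both listed as hypoxia-induced, were lower in muscle at both ages, with log2 values of -1.25 and -1.46 in aged mice and -1.33 and -0.94 in young mice. Those calls ended for Fam162a without aged spleen replicate 2 (-1.07), aged muscle replicate 2 or young spleen replicate 1 (-1.25), and for Kdm4b in young mice without either young spleen library (-0.92 and -0.97) or young muscle replicate 2 (-0.87). Vegfa, the vascular growth factor best known of the HIF targets, was at 1.48 and 7.14 CPM in aged muscle and 20.4 and 6.95 CPM in young muscle, against 1.95 and 2.02 CPM in aged spleen and 2.79 and 2.31 CPM in young spleen, and passed at neither age.

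Of 14 regulators of the HIF pathway, 2 were higher and 2 lower in aged muscle, and 2 were higher and 1 lower in young muscle. The higher genes were Arnt and Epas1 in aged mice and Arnt2 and Cited2 in young mice. Hsp90ab1 was lower at both ages and Hif1an in aged mice. The shares, 14.3% and 14.3% in aged and 14.3% and 7.14% in young mice, lay near those of all tested genes (9.57% and 9.27%, and 11.4% and 10.9%). Arnt2, a dimer partner of HIF alpha subunits, was at 80.3 and 108 CPM in young muscle and 6.50 and 18.1 CPM in young spleen, a log2 fold change of 2.90 ± 0.36 (edgeR adjusted p = 4.87e-05). Hsp90ab1, the chaperone that holds HIF-1 alpha, was lower in muscle, with log2 values of -0.78 ± 0.19 in aged mice and -1.15 ± 0.19 in young mice. The aged call ended without either aged spleen library (-0.81 and -0.74) or aged muscle replicate 2 (-0.58). Among 23 tested genes of other sugar handling, 4 were higher and 2 lower at each age, or 17.4% and 8.70% of the list, beside 9.57% and 9.27% of all tested genes in aged and 11.4% and 10.9% in young mice. The higher genes were Gpd2, Slc16a7, Slc2a12 and Slc2a13 in aged mice and Slc16a7, Slc2a13, Slc2a9 and Hk3 in young mice. Hk3 was at 0 in both young spleen libraries. Without young muscle replicate 1, the library with high myeloid markers, the young calls of Hk3 (higher) and Adpgk (lower) ended. Both ended under other settings too. Slc16a7 (MCT2), a further lactate carrier, was at 6.66 and 25.6 CPM in aged muscle, 14.8 and 30.3 CPM in young muscle, 1.70 and 2.02 CPM in aged spleen and 0.93 and 1.15 CPM in young spleen. Its call in aged mice, at a log2 value of 3.09 ± 0.74, ended without aged muscle replicate 2 (1.82) or either aged spleen library (2.96 and 3.20). G6pc3, a glucose-6-phosphatase, was lower in muscle, with log2 values of -1.74 ± 0.40 in aged and -1.69 ± 0.42 in young mice. Those calls ended without aged muscle replicate 2 (-1.36), either aged spleen library, young spleen replicate 2 (-1.34) or young muscle replicate 2 (-1.37). Of 8 pentose phosphate genes, Tkt (transketolase) was higher in muscle at both ages, at 0.52 ± 0.16 and 0.54 ± 0.16 in aged and young mice, and H6pd was lower in aged muscle at -1.02 ± 0.34. A single call is 12.5% of that list, near the shares of all tested genes (9.57% and 9.27% in aged and 11.4% and 10.9% in young mice). The Tkt calls ended without any single spleen library, in aged mice also without aged muscle replicate 1, and in young mice also without either young muscle library (0.30 to 0.61). The aged Tkt call ended too with no filter on low counts and with only the aged groups fitted, and the H6pd call ended with DESeq2 (-0.98), with library-size and upper-quartile scaling (-0.97 and -0.93) and without any single spleen library or aged muscle replicate 2 (-1.26 to -0.68). Of 27 genes of pyruvate entry and the TCA cycle, 0 were higher at either age by edgeR and 1 was lower at each, Sdha in aged (-0.66 ± 0.22) and Suclg2 in young mice (-1.11 ± 0.27). A single lower call is 3.70% of the list, beside 9.27% of all tested genes in aged and 10.9% in young mice. The 0 higher stands beside 9.57% in aged and 11.4% in young mice. The Sdha call ended with DESeq2 (-0.62), with upper-quartile scaling (-0.57) and without any single spleen library or aged muscle replicate 2 (-0.82 to -0.41), and the Suclg2 call without either young spleen library or young muscle replicate 2 (-1.13 to -0.83). At an unadjusted p of 0.05, 2 were higher and 7 lower in aged mice and 3 were higher and 4 lower in young mice, and DESeq2 also called 0 higher at both ages.

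With age, muscle Tregs changed in 2 of the 33 genes, 1 higher and 1 lower, or 3.03% of the members in each direction, where 1.14% of all tested genes were called higher and 0.88% lower. The median log2 fold change, aged over young muscle, was -0.15, beside 0.03 for all genes. Ddit4 (REDD1), a stress-induced inhibitor of mTORC1 and a HIF target, was at 242 and 200 CPM in aged muscle against 405 and 377 CPM in young muscle, and the groups were well apart. It fell by 0.82 ± 0.16 on the log2 scale in aged muscle (edgeR adjusted p = 0.0149). Without aged muscle replicate 2 the value was -0.69 and without young muscle replicate 1 it was -0.77, both ended the call, and so did fitting the muscle groups alone (adjusted p = 0.213). Ldhb rose in aged muscle, at 17.02 and 9.66 CPM against 4.00 and 2.98 CPM in young muscle, by 1.92 ± 0.44 (adjusted p = 0.0353). In read counts these were 46 and 23 in aged muscle and 10 and 6 in young muscle. That call ended without any single library except aged muscle replicate 2, at 1.45 to 2.16, and with the muscle groups fitted alone (1.92, adjusted p = 0.454).

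No other member passed the adjusted threshold between aged and young muscle. Of the 33 members, 9 had both aged libraries below both young ones, 1 (Ldhb) had them above, and 23 overlapped. The 9 were Ddit4, Slc16a3, Egln3, P4ha1, Pfkfb4, Slc2a1, Slc2a3, Egln1 and Pkm, and of these only Ddit4 passed. How often all tested genes show such separation was not tested. With 2 libraries per group, separation alone does not show a change with age. Values of Slc16a3, Egln3, P4ha1 and Pfkfb4 follow. Slc16a3 had a value of -0.50 ± 0.24 (edgeR adjusted p = 0.345) and Egln3 of -0.50 ± 0.24. P4ha1 was at 151 and 155 CPM in aged muscle and 220 and 181 CPM in young muscle, a value of -0.39 ± 0.17 (adjusted p = 0.278). Pfkfb4, at -1.91 ± 0.80 (adjusted p = 0.26), had a value of -0.61 ± 0.97 without young muscle replicate 1.

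In spleen, age went with higher Slc16a3 and Tpi1, 2 of 33 members or 6.06%, where 2.08% of all tested genes were called higher, and 0 of 33 members were lower by edgeR, where 2.16% of all genes were. At an unadjusted p of 0.05, 3 members were lower, and DESeq2 called 1 lower, Ddit4. The median log2 fold change was 0.13, beside 0.05 for all genes. Slc16a3 was at 102 and 97.7 CPM in aged spleen against 20.4 and 41.2 CPM in young spleen, a clear gap, and rose by 1.67 ± 0.27 on the log2 scale (edgeR adjusted p = 0.00337), or 3.19-fold. The call ended without aged spleen replicate 1 (1.65, adjusted p = 0.0556). Tpi1 was at 113 and 112 CPM in aged spleen against 40.9 and 57.0 CPM in young spleen and rose by 1.20 ± 0.24 (adjusted p = 0.011). The Tpi1 call ended without any single spleen library, at 0.98 to 1.46.

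Ddit4 was lower in aged spleen as well, at 217 and 186 CPM against 277 and 319 CPM in young spleen, with a log2 value of -0.56 ± 0.16 (edgeR adjusted p = 0.0685). The same gene passed with DESeq2 (adjusted p = 0.0147) and when the spleen groups were fitted alone (adjusted p = 0.000901). P4ha1, at 127 and 131 CPM in aged spleen and 200 and 170 CPM in young spleen, had -0.52 ± 0.17 (adjusted p = 0.109), and Pdk1 had -0.51 ± 0.23 (adjusted p = 0.275). Aldoa and Hif1a had positive values, 0.47 ± 0.20 and 0.40 ± 0.19, and did not pass. With the spleen groups fitted alone P4ha1 (adjusted p = 0.00841), Pdk1 (0.0253), Ldha (0.0384) and Aldoa (0.0275) passed too, with Aldoa higher and the others lower in aged spleen. Spleen Tregs of aged mice had more B cell marker signal (676 and 677 CPM, against 507 and 514 CPM in young spleen) and more erythroid marker signal (125 and 160 CPM, against 65.9 and 22.7 CPM), and their part in these results was not tested.

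**Figure D4:**
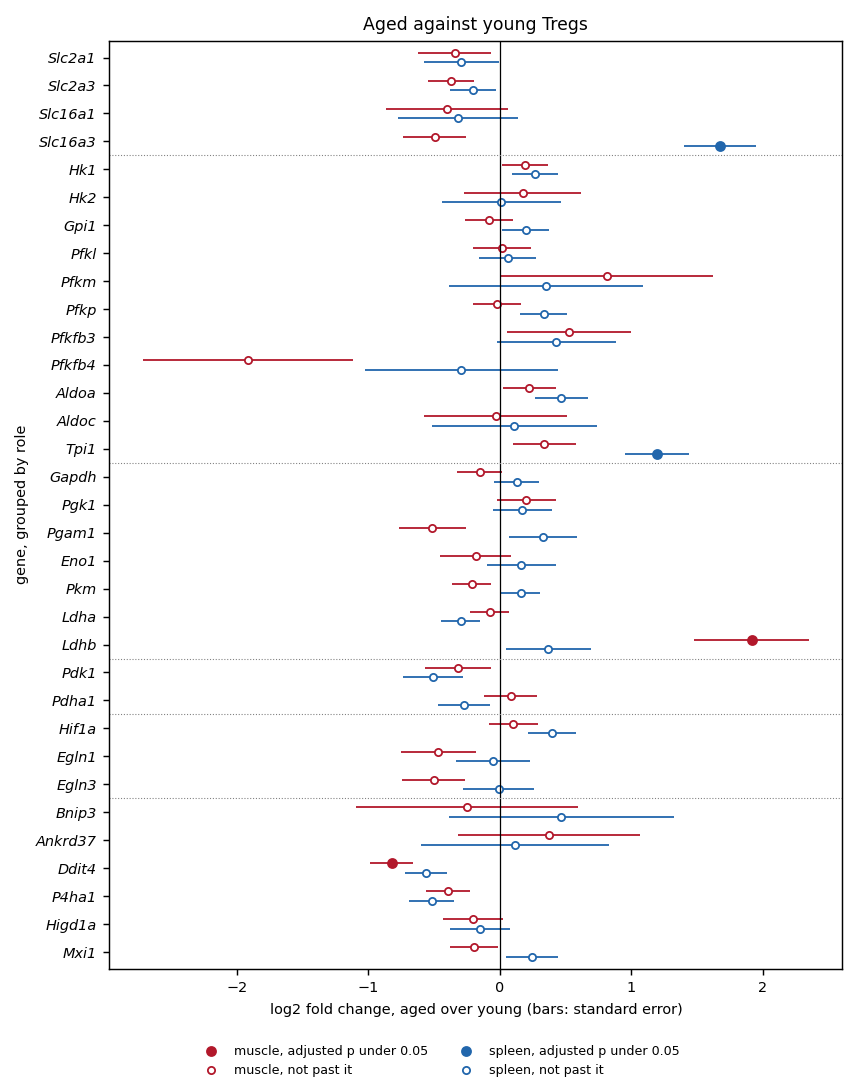
Log2 fold change of each gene, aged over young, in muscle (red) and in spleen (blue), with bars of 1 standard error and filled points past an adjusted p of 0.05. In muscle the filled points are Ldhb at 1.92 and Ddit4 at -0.82, in spleen they are Slc16a3 at 1.67 and Tpi1 at 1.20, and Slc16a3 is the gene whose red and blue points lie farthest apart relative to their bars.

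The difference between the age effects, muscle minus spleen, was tested in the same model. Of the 33 genes, Slc16a3 alone passed, on the lower side (1 of 33, or 3.03%, where 1.17% of all tested genes were called lower). Its difference was -2.17 ± 0.36 (edgeR adjusted p = 0.00536), and the call was kept under all 13 other settings. The same number says that the gap between muscle and spleen in Slc16a3 was smaller in aged than in young mice. By edgeR and by DESeq2, 0 members were called higher, where 1.35% of all tested genes were, and 1 had an unadjusted p under 0.05. That gene was Ldhb, with 1.55 ± 0.55 (adjusted p = 0.188), so its rise in aged muscle was not shown to differ from its value in spleen of 0.37. Tpi1, at -0.86 ± 0.34 (adjusted p = 0.267), and Pgam1, at -0.84 ± 0.36 (adjusted p = 0.331), did not pass, and both passed when young muscle replicate 2 was left out. The age effects in muscle and spleen share no library, while each age effect shares libraries with the tissue comparisons.

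Outside the 33 members, age was marked in a few regulators. Maff, a small bZIP factor gene counted among hypoxia-induced genes, was at 130 and 145 CPM in aged muscle, 31.6 and 28.3 CPM in young muscle, 23.4 and 28.3 CPM in aged spleen and 87.3 and 100 CPM in young spleen. Aged muscle was above young muscle and aged spleen below young spleen, with no overlap. The log2 values were 2.20 ± 0.22 in muscle (edgeR adjusted p = 8.41e-05) and -1.86 ± 0.22 in spleen (adjusted p = 0.000145). Bhlhe40, a transcription factor gene that HIF induces, rose with age in both tissues. It was at 110 and 92.8 CPM in aged muscle against 18.4 and 21.3 CPM in young muscle, and at 104 and 144 CPM in aged spleen against 26.0 and 38.1 CPM in young spleen. Its log2 values were 2.35 ± 0.27 in muscle (adjusted p = 0.000217) and 1.94 ± 0.25 in spleen (adjusted p = 0.000325). Maff and Bhlhe40 were the 2 of 31 other hypoxia genes that rose in aged muscle (6.45%, beside 1.14% of all tested genes). By edgeR 0 fell there, beside 0.88% of all tested genes, and DESeq2 called 1 lower. At an unadjusted p of 0.05, 4 of the 31 were lower, where 1137 of 14772 tested genes were. In aged spleen 2 of the 31 rose (Bhlhe40 and Rora) and 2 fell (Maff and Jmjd6), 6.45% each way beside 2.08% and 2.16% of all tested genes. The Rora and Jmjd6 calls ended without young spleen replicate 1 (0.71 and -1.01) or either aged spleen library.

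Of the 14 HIF pathway regulators, Arnt, the common dimer partner of HIF alpha subunits, rose in aged muscle, at 146 and 133 CPM against 68.3 and 49.1 CPM in young muscle. Its log2 value was 1.24 ± 0.25 (edgeR adjusted p = 0.0168), and the call ended without aged muscle replicate 1 (1.18) and with the muscle groups fitted alone (adjusted p = 0.117). Arnt2 rose in aged spleen, at 52.4 and 59.6 CPM against 6.50 and 18.1 CPM in young spleen, by 2.15 ± 0.35 (adjusted p = 0.00272). In aged muscle Arnt2 was at 41.1 and 42.8 CPM against 80.3 and 108 CPM in young muscle, and it did not pass there. Arnt in muscle and Arnt2 in spleen were the only edgeR calls with age among the 14. Each is 7.14% of the list, beside 1.14% of all tested genes called higher in muscle and 2.08% in spleen. Among the 23 genes of other sugar handling, edgeR called 0 higher and 0 lower in aged muscle, beside 1.14% and 0.88% of all tested genes. DESeq2 called 1 higher. At an unadjusted p of 0.05, 1 was past it in each direction, where 1122 of 14772 tested genes were higher and 1137 lower. In aged spleen Pck2 was higher and Gpd2 lower, at log2 values of 0.99 ± 0.27 and -1.22 ± 0.30, and both calls ended when any single spleen library was left out (0.76 to 1.24 and -1.26 to -1.18). The Pck2 call ended also with DESeq2 and without aged muscle replicate 1 (0.97 each), and the Gpd2 call with library-size scaling (-1.06). Each of these calls is 4.35% of the list, beside 2.08% of all tested genes called higher and 2.16% lower in aged spleen.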

How the data were processed

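Raw read counts were deposited by the authors as 1 table of 38406 gene symbols by 8 libraries, not normalized. Per the labels' protocols, RNA of 1500 sorted cells was reverse transcribed, amplified by in vitro transcription, fragmented and amplified by PCR. No molecular identifiers are described, so counts are reads and not molecules, and counting floors cover counting error only. Per the submitters' processing notes, TopHat2, TopHat, Picard, SAMtools 0.1.19 and HTSeq were used with build mm10. For annotation, read length and strand, nothing is given in the sources used here. Counts of genes with near-identical copies or overlapping antisense genes are therefore uncertain. Every column was used.

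Samples were grouped by title into 4 groups of 2. In R 4.3.3 with edgeR 4.0.16, genes were kept by filterByExpr (14772 genes), scaled by TMM, and fitted with 1 coefficient per group over all 8 libraries (4 residual degrees of freedom, biological coefficient of variation 0.288) by robust quasi-likelihood, tested two-sided and adjusted by Benjamini-Hochberg at 0.05 over all genes. The script was tested on simulated data. Standard errors are the log2 fold change over the square root of F. DESeq2 1.42.0, 2 other scalings, no filter, a replicate block, each library left out in turn and a fit of only the 2 groups compared were alternatives. Libraries of a group differed by more than counting noise. The chi-square per gene was 8.49 in aged muscle, 8.65 in young muscle, 4.34 in aged spleen and 3.84 in young spleen, and the fit used 1 shared estimate of the spread. The named genes are all members and genes from 6 pathway lists. From those lists, up to 4 called genes of smallest p per comparison and direction could be given with values, and not all of them were. Vegfa and Pgam2 were named outside that rule, after their values were seen. The members and lists were chosen with earlier results of these data known. Gene lengths are exon unions of GENCODE M21 on GRCm38, which mm10 names, and 50-base windows come from its transcripts.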

Additional observations from a re-analysis of the deposited data

Results flagged for a closer look

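In 3 genes the age effect differed between muscle and spleen in a test of the difference itself (edgeR, age effect in muscle minus age effect in spleen). Slc16a3 had a difference of -2.17 on the log2 scale, made of -0.50 in muscle and 1.67 in spleen, with aged libraries below young ones in muscle and above them in spleen. Maff had a difference of 4.06, made of 2.20 in muscle and -1.86 in spleen. Arnt2 had a difference of -3.31, with 41.1 and 42.8 CPM in aged muscle, 80.3 and 108 CPM in young muscle, 52.4 and 59.6 CPM in aged spleen and 6.50 and 18.1 CPM in young spleen.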

How the results depend on the processing

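Across 14 alternatives, 0 called members changed direction, and 9 of 23 member calls were lost under none of them: Slc16a3 between tissues in young mice and between the age effects (13 alternatives), Ldhb, Egln3 and Mxi1 between tissues at both ages, and Pdk1 in young mice. Leaving out single libraries, which also removes residual degrees of freedom, gave these numbers of called members. Tissue in aged mice ranged from 2 to 6 higher and from 1 to 2 lower, tissue in young mice from 5 to 11 higher, age in muscle from 0 to 1 higher and from 0 to 2 lower, age in spleen from 0 to 2 higher and from 0 to 1 lower, and the difference of age effects from 1 to 3 lower. With only the muscle groups fitted, 0 members were called higher and 0 lower with age, and with only the spleen groups fitted 4 were called lower. DESeq2 called 1 lower with age in spleen. The replicate block also called 1 lower there, Ddit4 at -0.57 (edgeR adjusted p = 0.0413). Same-number correlations between groups were -0.065 to 0.256, highest between aged and young muscle. They do not settle whether the replicate numbers pair the samples.

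Scaling by library size alone moved the median of all genes to 0.14 in muscle and 0.21 in spleen with age and to 0.18 between tissues in young mice (0.03, 0.05 and 0.07 with TMM), and upper-quartile scaling moved the last to 0.19. Under either scaling 12 members were called higher in young muscle, on a median shifted the same way. Over all genes, library-size scaling called 224 higher and 111 lower with age in muscle, against 168 and 130 with TMM, and 482 and 233 in spleen, against 307 and 319. Upper-quartile scaling called 1969 higher and 1245 lower in young muscle, against 1681 and 1610. With age, the replicate block called 263 and 216 genes in muscle and 469 and 424 in spleen, DESeq2 243 and 254 in muscle, no filter 417 and 331 in muscle, 632 and 407 in spleen and 299 and 371 for the difference, and a fit of only the groups compared 33 and 17 in muscle and 929 and 1002 in spleen. The cause of these changes was not tested. Genes under about 10 CPM (Bnip3, Ankrd37, Pfkm, Pfkfb4, Ldhb in young muscle, and Aldoc in spleen) are limited by depth.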

Other observations

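Glucose sensing and growth control were described through 28 further genes of the mTOR, Myc and thioredoxin-interacting protein pathways. In aged mice 2 of them were higher in muscle than in spleen and 8 lower, and in young mice 4 were higher and 5 lower, by edgeR's quasi-likelihood test with Benjamini-Hochberg adjustment. These are 7.14% and 28.6% of the list in aged mice, beside 9.57% and 9.27% of all tested genes, and 14.3% and 17.9% in young mice, beside 11.4% and 10.9%. The median log2 fold changes were -0.13 in aged and -0.28 in young mice, beside 0.03 and 0.07 for all genes. Stk11 was among the higher genes in young mice, and its call ended without young muscle replicate 1, which had high myeloid markers, or without any single spleen library. Mxd1, which like Mxi1 pairs with Max and opposes Myc, was at 523 and 361 CPM in aged muscle, 565 and 611 CPM in young muscle, 90.8 and 94.4 CPM in aged spleen and 116 and 154 CPM in young spleen. All muscle libraries were above all spleen libraries, and the log2 fold change was 2.26 ± 0.20 in aged mice (adjusted p = 2.91e-06) and 2.12 ± 0.20 in young mice (adjusted p = 2.43e-06). Max itself was lower in muscle, at 79.5 and 60.9 CPM in aged muscle and 86.3 and 68.5 CPM in young muscle, against 175 and 126 CPM in aged spleen and 162 and 203 CPM in young spleen, and the aged call ended without aged spleen replicate 1 (-0.85).

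The sestrin genes, stress-induced inhibitors of mTORC1, divided. Sesn2 was at 94.3 and 61.7 CPM in aged muscle, 173 and 140 CPM in young muscle, 34.3 and 20.2 CPM in aged spleen and 40.4 and 36.9 CPM in young spleen, higher in muscle by 1.502 ± 0.28 in aged mice (edgeR adjusted p = 0.00189) and 2.02 ± 0.27 in young mice (adjusted p = 0.000114). Sesn3 was at 45.1 and 31.9 CPM in aged muscle, 38.8 and 46.6 CPM in young muscle, 112 and 125 CPM in aged spleen and 157 and 143 CPM in young spleen, with log2 values of -1.61 ± 0.22 and -1.82 ± 0.22 in aged and young mice (adjusted p = 0.000149 and 3.32e-05). In both genes the tissues did not overlap, and the calls held under all 14 alternatives. Txnip, which curbs glucose uptake, was at 118 and 90.7 CPM in aged muscle, 166 and 126 CPM in young muscle, 162 and 166 CPM in aged spleen and 297 and 237 CPM in young spleen. It was lower in muscle, with log2 values of -0.65 ± 0.20 in aged mice and -0.87 ± 0.19 in young mice, and the young call ended without young spleen replicate 1 (-0.70). With age in muscle, edgeR called 0 of the 28 in either direction, where 1.14% of all tested genes were called higher and 0.88% lower. DESeq2 called 1 lower. At an unadjusted p of 0.05, 9 of the 28 were lower and 0 higher. Of all 14772 tested genes, 1137 were lower and 1122 higher at that limit. In aged spleen 1 was lower (3.57%, beside 2.16% of all tested genes) and 0 were higher (beside 2.08%). The lower gene was Sesn1 at -1.07 ± 0.18, a call that ended on leaving out replicate 2 of young spleen (-0.98) or of aged spleen (-0.94).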
